A study of Mus musculus with 2 samples.

Results

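The genes described here are 34 mouse genes of glycolysis and of the transcriptional response to low oxygen, out of 33696 genes in the deposited matrix. They were chosen by symbol and not by a limit on their levels, but with earlier results of these data known. The first group holds 19 glycolysis genes (glucose and lactate transporters, the glycolytic enzymes and 2 regulators of phosphofructokinase). The second holds 15 hypoxia response genes. All 34 symbols were found, Aldoa in 2 rows of which the second held 22 UMIs, and the members made up 823016 UMIs, 0.680% of those in the kept cells.

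The study described droplet-based single-cell RNA sequencing of 2 mouse samples, 1 per group. The first was untreated EpiSC of the cell line Delmix, which are epiblast stem cells, a primed kind of pluripotent cell. The second was embryoid bodies, aggregates of differentiating cells, on day 2 after being made from that line. The labels name 1 cell line for both samples, but 2 clusters held markers of other cells: 531 cells were fibroblast or feeder-like and 81 macrophage-like, and the labels do not say where these came from. No genetic change or oxygen treatment is named in the labels, and both samples were taken apart with trypsin. The counts lie in 1 pooled matrix whose cell tags match no sample label, so no value below belongs to either sample and the stem cells could not be compared with the embryoid bodies. The matrix was treated as 1 sample: levels are compared between clusters of its cells without tests or p-values, and intervals are 95% intervals that cover counting error only.

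Among 21593 called cells, 16841 (78.0%) passed the minimum of 1000 genes and the maximum of 10% for the mitochondrial share. Their depth ran from 1265 to 34748 UMIs (median 6473). They formed 14 clusters, of which 12 held at least 100 cells. The members and the genes of the pathway, regulator, stress and immediate early lists were left out of the genes on which cells were clustered. The cell type markers that name the clusters were not left out. Cluster 1 was naive pluripotency-like, with 13 of 15 naive markers raised (3905 cells). Cluster 4 was caudal epiblast-like (1648 cells), cluster 6 simple epithelium-like (986 cells), cluster 7 primitive streak and mesoderm-like (658 cells), cluster 9 fibroblast or feeder-like (531 cells), cluster 10 germ cell-like (322 cells) and cluster 12 Two-cell-like (196 cells). Clusters are those of 1 setting: under 5 other settings of the filter or the clustering, cluster 3 was found again under none (a Jaccard index of cells of at least 0.5), clusters 5 and 11 under 1, cluster 2 and the germ cell-like cluster under 3, the naive-like cluster, cluster 6 and cluster 8 under 4, and clusters 4, 7, 9 and 12 under all 5. The largest cluster without a name was cluster 2 (3561 cells, led by Car4, Pim2 and Dnmt3b, a DNA methyltransferase gene). Clusters 3, 5, 8 and 11 were also unnamed. The cells of cluster 8 were shallow (median 2633 UMIs), and their median mitochondrial share was 8.13%, against 3.14% over all kept cells. Doublets were called for 11.9% of kept cells, most often in clusters 3 (27.6%) and 9 (23.5%).

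Glycolysis splits glucose into pyruvate in the cytosol, and lactate dehydrogenase turns pyruvate into lactate that monocarboxylate transporters carry out of the cell. Under low oxygen the factor HIF escapes the prolyl hydroxylases that mark it for destruction, and with its partner ARNT it raises many genes of glycolysis together with Vegfa, Bnip3, Pdk1 and the hydroxylases themselves. Naive pluripotent cells are known to use both glycolysis and respiration, and primed cells to rely more on glycolysis.

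Sequences upstream of members that the comparisons below turn on are shown for the core of the HIF response element, ACGTG or GCGTG on either strand. They are from RefSeq promoter windows (GRCm38.p6), which reach from 250 bases before to 50 bases after an annotated start, and only bases before the start are printed. Capitals mark the searched letters (CACGT and CACGC are their reverse complements), and CACGTG holds ACGTG on both strands. The first 3 lines are of members lower in naive-like cells than in cluster 2, the next 2 of members higher there, and the last 2 of a glycolytic enzyme and a mitophagy gene from each group.
Ldha, chr7:46845629-46845803, plus strand: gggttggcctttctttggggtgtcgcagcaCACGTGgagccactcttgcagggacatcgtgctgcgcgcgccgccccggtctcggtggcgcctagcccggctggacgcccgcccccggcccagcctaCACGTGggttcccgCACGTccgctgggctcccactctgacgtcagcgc
Slc16a3, chr11:120949010-120949066, plus strand: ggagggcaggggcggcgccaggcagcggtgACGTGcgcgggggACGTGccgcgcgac
Egln3, chr12:54204069-54204124, minus strand: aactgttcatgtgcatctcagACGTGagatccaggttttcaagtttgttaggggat
Pfkp, chr13:6648772-6648937, minus strand: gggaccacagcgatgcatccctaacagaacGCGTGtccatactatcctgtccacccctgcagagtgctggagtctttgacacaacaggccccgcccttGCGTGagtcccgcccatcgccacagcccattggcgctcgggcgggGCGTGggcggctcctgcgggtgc
Kdm3a, chr6:71632918-71632974, minus strand: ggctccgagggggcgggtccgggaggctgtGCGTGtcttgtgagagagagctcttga
Pgk1, chrX:106186920-106187003, plus strand: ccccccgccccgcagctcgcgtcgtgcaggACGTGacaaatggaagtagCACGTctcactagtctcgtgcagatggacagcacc
Bnip3, chr7:138909507-138909653, minus strand: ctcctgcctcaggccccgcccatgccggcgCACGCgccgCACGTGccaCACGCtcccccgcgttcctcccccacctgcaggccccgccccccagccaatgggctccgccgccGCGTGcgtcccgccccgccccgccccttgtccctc

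The Ldha window shown holds 5 matches between 145 and 34 bases before the start, with CACGTG in 2 places, and another Ldha window holds 1. Slc16a3 has 2 copies of ACGTG within its last 27 bases, whereas Pfkp and the Kdm3a window shown have GCGTG alone. The other Kdm3a windows hold no match before the start. Egln1, also lower in naive-like cells, is not printed and has GCGTG and ACGTG, 126 and 68 bases before the start. The lines are examples, and a difference in motif between higher and lower members was not tested. Windows were found for 32 of the 34 members, 46 windows in all, without Slc2a3 and Ndrg1. ACGTG stood in 26 of the 46 windows (56.5%), against 19.6% of 32851 windows of all genes. GCGTG stood in 25 windows (54.3%) against 32.4%, and either motif in 36 (78.3%) against 43.8%. The mean GC content was 63.5% in the windows of members and 53.8% in all windows, and its part in these shares was not tested.

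Nearly all members varied between clusters, as did most genes. Of the 30 members that reached 20 CPM (UMIs of the gene per 1000000 UMIs) in at least 1 of the 12 clusters, 28 were at least 2-fold higher in their highest than in their lowest cluster, against 89.8% of all genes that reached that level. Without cluster 8, it was 24 of 30 members, against 70.7% of genes. Without cluster 8, the enzyme genes Gapdh, Gpi1, Pgam1, Pkm and Tpi1 stayed within 2-fold, and so did Higd1a, a mitochondrial protein gene of the hypoxia response. Other enzyme genes of the pathway did not, with ratios of 2.14 for Eno1, 2.50 for Pgk1 and 4.85 for Ldha. Ndrg1, Car9, Pfkfb3 and Pfkfb4 stayed under 20 CPM in each of these clusters.

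**Figure D1:**
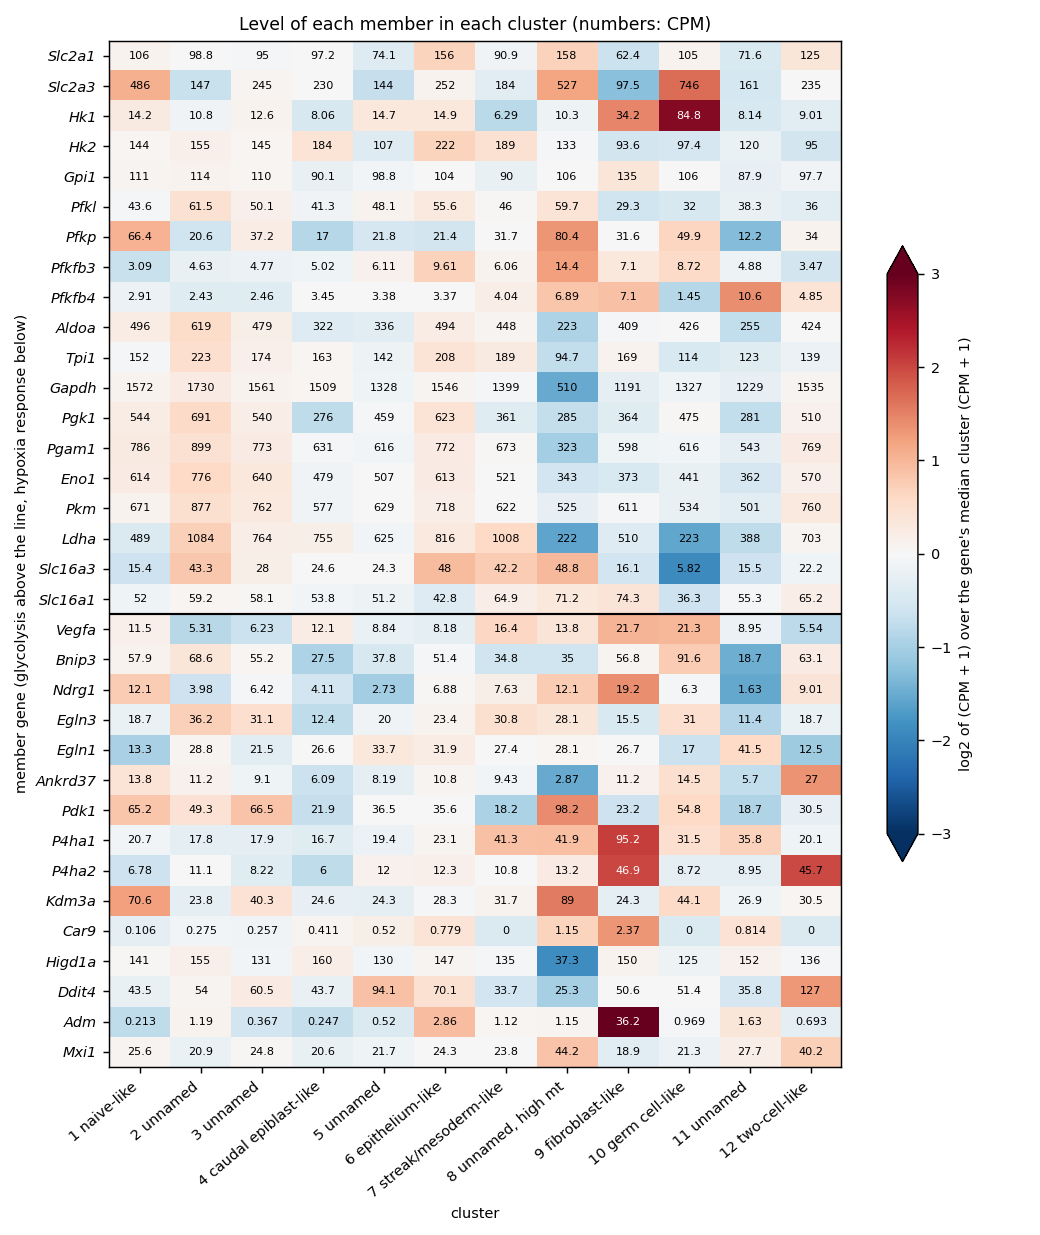
Level of each of the 34 members (rows) in the 12 clusters of at least 100 cells (columns), printed as CPM; colour gives the log2 ratio of CPM + 1 to the member's median cluster. Slc2a3 and Hk1 stand out in the germ cell-like cluster (746 and 84.8 CPM), Adm, P4ha1 and P4ha2 in the fibroblast-like cluster, and Ldha in cluster 2 (1084 CPM).

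Summed over the 19 members, glycolysis was highest in cluster 2, at 7616 CPM (7580 to 7653), and lowest in cluster 8, at 3743 CPM (3652 to 3835), a ratio of 2.04 (1.99 to 2.09). Without cluster 8 the lowest was cluster 11, which Fabp7 and Pax3 led, at 4267 CPM, and the ratio was 1.79. The naive-like cluster stood at 6368 CPM and the germ cell-like cluster at 5429 CPM. Cell-free droplets, which hold RNA shed into the suspension, had 6895 CPM, more than 11 of the 12 clusters. The hypoxia response sum ran from 383 CPM in the caudal epiblast-like cluster to 598 CPM (576 to 621) in the fibroblast-like cluster, a ratio of 1.56 (1.49 to 1.64). Levels are sums over the cells of a cluster, in which more cells that express a gene and more RNA per cell cannot be told apart.

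Glucose enters the cell through Slc2a1 and Slc2a3, the transporters also called GLUT1 and GLUT3. Slc2a3 had a lowest level of 97.5 CPM in the fibroblast-like cluster, a median of 233 CPM over the 12 clusters and a highest level of 746 CPM in the germ cell-like cluster. Cluster 8 (527 CPM) and the naive-like cluster (486 CPM) followed, and the other clusters stayed at or below 252 CPM. Slc2a1 ranged from 62.4 CPM in the fibroblast-like to 158 CPM in cluster 8 and 156 CPM in the epithelium-like cluster. Of the UMIs of the 2 transporters together, Slc2a3 took 82.1% (81.5 to 82.6) in naive-like cells, 59.8% (58.5 to 61.1) in cluster 2 and 87.6% (86.0 to 89.1) in germ cell-like cells.

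Of the 2 hexokinase members, whose products trap glucose as its phosphate, Hk2 held most UMIs. Hk2 had a median of 139 CPM and was highest in the epithelium-like cluster (222 CPM). Hk1 stayed at or below 14.9 CPM in 10 of the 12 clusters, and reached 34.2 CPM in fibroblast-like and 84.8 CPM in germ cell-like cells. The Hk1 share of Hk1 and Hk2 UMIs was 9.0% (8.17 to 9.88) in naive-like cells, 6.54% (5.75 to 7.39) in cluster 2, 26.8% (23.2 to 30.5) in fibroblast-like cells and 46.5% (41.4 to 51.7) in germ cell-like cells. After thinning each cell to 2000 UMIs, 15.9% of germ cell-like cells held an Hk1 UMI (12.1 to 20.4), against 2.15% in cluster 2; unthinned, the shares were 38.5% and 6.35%, at median depths of 6065.5 and 5797 UMIs. No cluster here was one that should lack Hk1, and the lowest thinned share was 1.24% in the streak and mesoderm-like cluster, whose median depth was 5862 UMIs.

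Phosphofructokinase commits the sugar to glycolysis, with Pfkl and Pfkp as its isoforms among the members. Another isoform gene, Pfkm, was in the matrix but is not counted in the share below. Pfkp ran from 12.2 CPM in cluster 11 to 66.4 CPM in naive-like cells and 80.4 CPM in cluster 8, and Pfkl from 29.3 CPM in fibroblast-like cells to 61.5 CPM in cluster 2. The Pfkp share of their UMIs was 60.4% (58.6 to 62.1) in naive-like cells and 25.1% (23.1 to 27.2) in cluster 2. The germ cell-like cluster, at 60.9% (53.2 to 68.3), overlapped the naive-like value. Pfkfb3 and Pfkfb4, whose products make an activator of phosphofructokinase, had at most 14.4 and 10.6 CPM.

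The shared middle of the pathway, Aldoa to Pkm, had its highest level in cluster 2 for all 7 genes named next: Aldoa (619 CPM), Tpi1 (223 CPM), Gapdh (1730 CPM), Pgk1 (691 CPM), Pgam1 (899 CPM), Eno1 (776 CPM) and Pkm (877 CPM). Pgk1, the first enzyme of the pathway to make ATP, was lowest in the caudal epiblast-like cluster (276 CPM). Gapdh, often used as a reference gene, was between 1191 and 1730 CPM in 11 of the 12 clusters and at 510.5 CPM in cluster 8. Eno1 has a near-identical copy without introns, Eno1b, with 4737 UMIs against 73209, and reads that fit both are uncertain.

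At the end of the pathway Ldha, the muscle-type lactate dehydrogenase subunit, ran from 222 CPM in cluster 8 and 223 CPM in germ cell-like cells through a median of 664 CPM to 1008 CPM in streak and mesoderm-like cells and 1084 CPM in cluster 2. Ldhb, the heart-type subunit and not a member, showed another order: it was highest in germ cell-like (360 CPM) and naive-like cells (165 CPM) and had 72.8 CPM in cluster 2. The Ldhb share of their UMIs was therefore 61.7% (58.9 to 64.5) in germ cell-like cells, 25.3% (24.7 to 25.9) in naive-like cells and between 6.29% and 17.2% in the other 10 clusters. Slc16a3, the lactate exporter of glycolytic cells, had 5.82 CPM in germ cell-like cells, 15.4 CPM in naive-like cells and 43.3 CPM in cluster 2. Its share against Slc16a1, the more widely used lactate carrier, was 13.8% (7.34 to 22.9), 22.9% (21.0 to 24.8) and 42.2% (40.2 to 44.3) in these clusters, and highest in epithelium-like cells at 52.9% (49.1 to 56.6). In cell-free droplets the Ldhb share was 19.7% and the Slc16a3 share 35.5%.

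**Figure D2:**
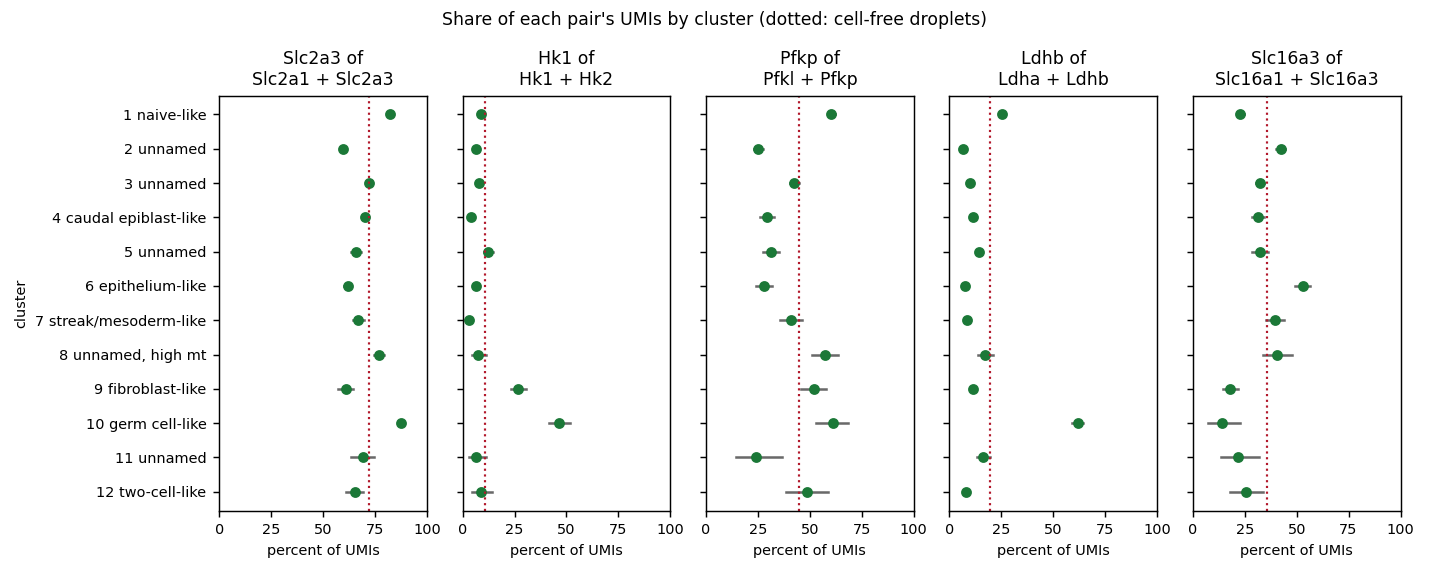
Share of the UMIs of 5 gene pairs that came from the named gene (x axis, percent) in each of the 12 clusters (rows), with exact binomial 95% intervals as bars and the cell-free droplets as a dotted line. The germ cell-like cluster is highest for Slc2a3, Hk1, Pfkp and Ldhb and lowest for Slc16a3, and in all 5 pairs the naive-like cluster lies on the germ cell-like side of cluster 2.

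Naive-like cells were set against cluster 2, taken as the largest other cluster. Of 11 primed epiblast markers, 3 were among the 10 leading genes of cluster 2, but none was raised 2-fold over all other cells, so it is not called primed here. A member was called where the levels differed by at least 1.5-fold with at least 20 CPM on the higher side, with 1 CPM added to both, and 25 of the 34 members could be called. Of these 25, 3 were higher in naive-like cells, against 9.29% of all genes tested, and 4 were lower, against 7.2%. The median log2 difference was -0.19 over the 25 members and -0.01 over all genes tested. By this rule a gene under 20 CPM on 1 side could only be called higher on the other, among members and all genes alike. Here this applied to Slc16a3, Egln1 and Egln3, which were under 20 CPM in naive-like cells.

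The 3 higher members were Slc2a3, at 486 against 147 CPM (log2 difference 1.72, interval 1.67 to 1.78), Pfkp, at 66.4 against 20.6 CPM (1.64, 1.54 to 1.84), and Kdm3a, at 70.6 against 23.8 CPM (1.53, 1.43 to 1.71). Kdm3a encodes a histone demethylase that HIF induces. The 4 lower members were Ldha, at 489 against 1084 CPM (-1.15, -1.18 to -1.12), Slc16a3, at 15.4 against 43.3 CPM (-1.43, -1.65 to -1.32), Egln1, at 13.3 against 28.8 CPM (-1.06, -1.30 to -0.93), and Egln3, at 18.7 against 36.2 CPM (-0.92, -1.11 to -0.79). Egln1 and Egln3 encode oxygen-sensing prolyl hydroxylases of HIF. Intervals of these differences are from the counts without the added 1 CPM. Among the 18 members between the limits, the enzymes Aldoa, Tpi1, Pgk1, Eno1 and Pkm had log2 differences of -0.32, -0.55, -0.35, -0.34 and -0.39. Pdk1, which keeps pyruvate out of the citric acid cycle, had 65.2 against 49.3 CPM (0.40). With cells of all clusters split by at least 5 against 0 naive marker UMIs instead, the differences were 0.03 for Ldha, -0.10 for Slc16a3 and 1.09 for Egln3, but 125 of the 1297 cells without a naive UMI lay in clusters 1, 2 and 3. Within those 3 clusters, cells with at least 11 against at most 2 naive UMIs differed by -0.72 for Ldha, -0.77 for Slc16a3 and -0.34 for Egln3.

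**Figure D3:**
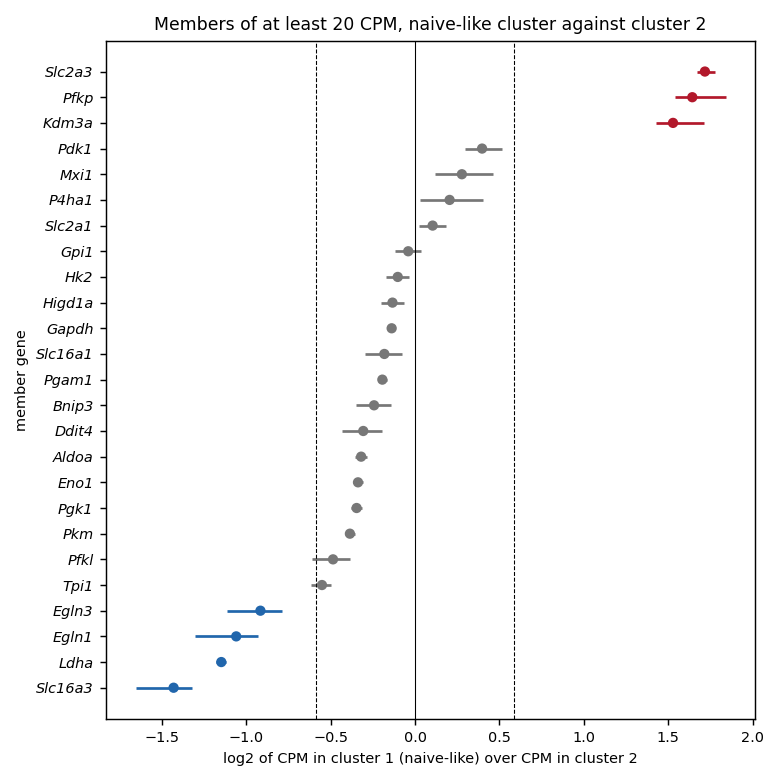
Log2 ratio of the level in the naive-like cluster to that in cluster 2 (x axis) for the 25 members with at least 20 CPM on the higher side (rows); bars are 95% counting intervals and dashed lines mark 1.5-fold. Slc2a3, Pfkp and Kdm3a lie to the right (red), and Ldha, Slc16a3, Egln1 and Egln3 to the left (blue).

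The same genes were followed over the number of naive marker UMIs per thinned cell, within clusters 1, 2 and 3 together. These clusters were found partly from naive genes, so the order of cells is a description. Slc2a3 had 161 CPM in 840 cells with 1 or 2 naive UMIs, 177 CPM with 3 to 5, 246 CPM with 6 to 10 and 437 CPM in 4393 cells with 11 or more. Kdm3a had 23.2, 26.5, 40.4 and 64.4 CPM in these bins, and Pfkp 23.2, 24.3, 42.4 and 54.6 CPM. Their levels lay close together in the lower 2 bins and apart in the upper 2. Ldha had 892, 912, 836 and 538 CPM, and Ldhb 81.5, 76.2, 78.6 and 155 CPM. Most of the lactate dehydrogenase difference thus lay between the last 2 bins. Pdk1 had 41.7, 48.6, 65.3 and 66.0 CPM, so its level in the last bin was close to that of the bin before. The 125 cells without a naive UMI had wide intervals, for Kdm3a 2.47 to 35.1 CPM.

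**Figure D4:**
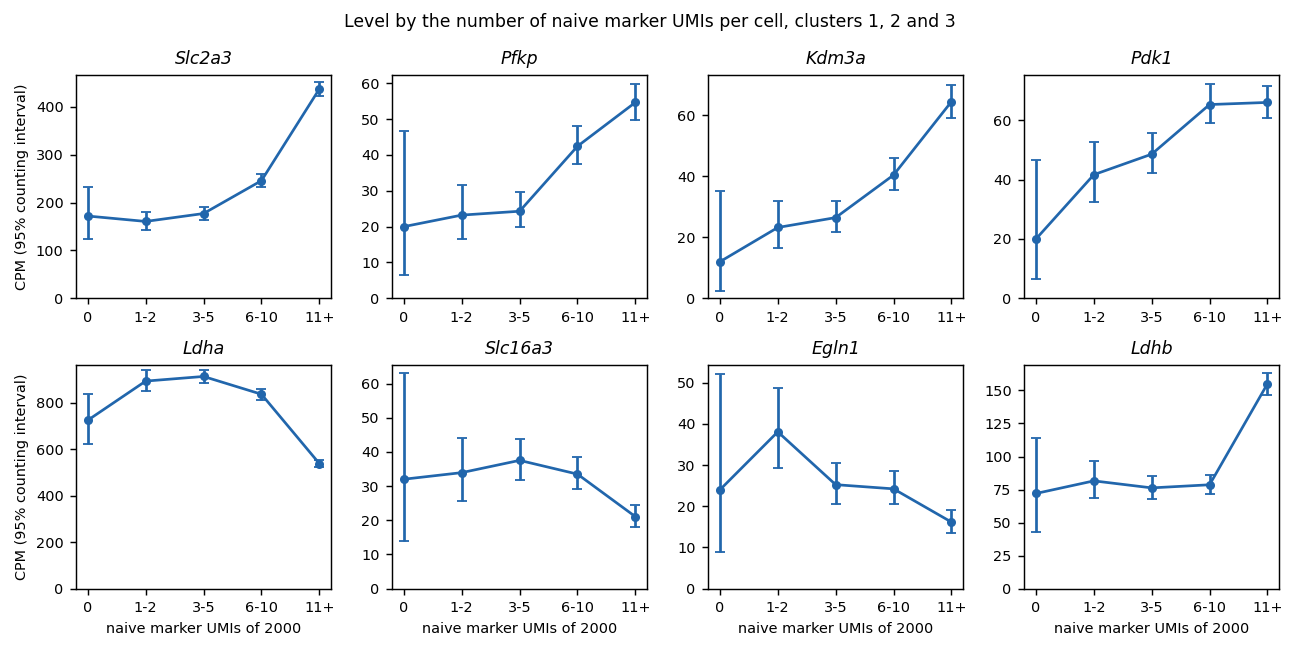
Level in CPM (y axis, with 95% counting intervals) of 7 members and Ldhb by the number of naive marker UMIs among 2000 UMIs per cell (x axis), in clusters 1, 2 and 3. Slc2a3, Pfkp, Kdm3a and Ldhb are highest in cells with 11 or more naive UMIs, where Ldha, Slc16a3 and Egln1 are lowest.

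Germ cell-like cells, which express Rhox6 and Rhox9, shared with naive-like cells the higher Slc2a3 and the lower Ldha and Slc16a3. Against all other kept cells, 4 members of 27 were higher (background 9.28% of genes) and 6 were lower (13.8%). The higher members were Hk1 (84.8 against 13.0 CPM), Slc2a3 (746 against 271 CPM), Vegfa, a blood vessel growth factor gene (21.3 against 9.31 CPM), and Bnip3, whose product takes mitochondria to breakdown (91.6 against 52.8 CPM). Hk1 and Vegfa were under 20 CPM in the other cells, so they could not have been called lower. The lower members were Slc16a3, Ldha, Hk2, Tpi1, Slc16a1 and Pfkl, with log2 differences from -2.12 for Slc16a3 to -0.59 for Pfkl. Slc16a3 was under 20 CPM in germ cell-like cells, so it could not have been called higher. With mitochondrial and ribosomal protein genes left out of the total, 3 were lower, as with a strict cell filter, and 2 with a mean over cells.

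In fibroblast-like cells, 5 members of 29 were higher than in other cells (background 25%) and 9 were lower (29.4%). Of the higher members, Adm, Vegfa, Hk1 and P4ha2 were under 20 CPM in the other cells, so they could not have been called lower. Adm, the gene of the peptide adrenomedullin, had 36.2 against 0.721 CPM, with levels of 0.213 to 2.86 CPM in the other 11 clusters. P4ha1 (95.2 against 20.9 CPM) and P4ha2 (46.9 against 9.32 CPM) encode the prolyl hydroxylases of collagen. Hk1 and Vegfa were also higher. The lower members were Slc2a3, Pdk1, Slc16a3, Kdm3a, Pfkl, Eno1, Slc2a1, Hk2 and Egln3, with 97.5 against 286 CPM for Slc2a3 and 23.2 against 51.5 CPM for Pdk1. Slc16a3 and Egln3 were under 20 CPM in fibroblast-like cells, so they could not have been called higher. Dissociation and immediate early genes moved with this cluster: 6 of 9 tested were higher, Egr1 at 134 CPM against a median of 31.4 CPM over clusters, and their part in these values was not tested.

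Caudal epiblast-like cells had no higher member (background 7.96%) and 7 lower ones of 25 (8.97%). These were Pdk1 (21.9 against 53.6 CPM), Pfkp, Egln3, Bnip3 (27.5 against 56.3 CPM), Pgk1 (276 against 547 CPM), Kdm3a and Aldoa (322 against 490 CPM). Pfkp and Egln3 were under 20 CPM in caudal epiblast-like cells, so they could not have been called higher. Cluster 11 had 1 higher (Egln1, background 19.4%) and 11 lower members of 25 (10.3%), among them Pfkp, Bnip3, Pdk1, Egln3, Ldha and Pgk1. Pfkp, Bnip3, Pdk1, Egln3 and Slc16a3, also lower, were under 20 CPM in cluster 11, so they could not have been called higher. The 4 hypoxia response members lower there were Bnip3, Egln3, Pdk1 and Ddit4, the last at 35.8 against 55.0 CPM. Cluster 11 was shallower than most, with a median of 4109 UMIs.

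Epithelium-like cells had 3 higher members of 25 (background 7.09%): Slc16a3 (48.0 against 27.0 CPM), Slc2a1 (156 against 97.0 CPM) and Hk2 (222 against 146 CPM, at the limit with 1.52-fold). Between the limits were 12 of the 16 glycolysis members tested. Pfkp was lower (21.4 against 38.2 CPM, background 4.69%). Here 6 of 8 dissociation and immediate early genes were higher, and their part was not tested. Streak and mesoderm-like cells had 2 higher members of 25 (background 12.1%), P4ha1 (41.3 against 23.1 CPM) and Slc16a3, which at 42.2 against 27.8 CPM lay at the limit and was under it without its highest cell. They had 4 lower ones (11.2%), Pdk1 (18.2 against 51.6 CPM), Ddit4, Bnip3 and Slc2a3. Pdk1 was under 20 CPM in these cells, so it could not have been called higher.

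Two-cell-like cells, which express Zscan4 genes of the early embryo, had 4 higher members of 27 (background 12.2%) and 3 lower (20.3%). P4ha2 stood at 45.7 against 10.3 CPM and made up 69.5% (59.2 to 78.5) of P4ha1 and P4ha2 UMIs, against at most 38.4% in the other 11 clusters. Ddit4, whose product restrains mTOR signalling, had 127 against 53.9 CPM, and Ankrd37, a small HIF-induced ankyrin repeat gene, 27.0 against 10.4 CPM. For Ankrd37, 1 cell held 9 of its 39 UMIs, and without that cell the level was 20.9 CPM, just over the minimum and still called. P4ha2 and Ankrd37 were under 20 CPM in the other cells, so they could not have been called lower. Mxi1, a MYC antagonist, had 40.2 against 23.6 CPM, but 1 cell held 20 of its 58 UMIs, and without that cell the level was 26.4 CPM and was not called. Hk2, Egln1 and Pdk1 were lower, and Egln1, under 20 CPM in Two-cell-like cells, could not have been called higher.

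Cluster 2 against all other cells had 3 higher members of 25 (background 0.598%), Ldha, Slc16a3 and Egln3, and 3 lower (7.92%), Slc2a3, Pfkp and Kdm3a, the naive-like cluster being part of its reference. The naive-like cluster had 3 higher (5.35%) and 3 lower (12.6%) against all others. Of the lower ones, Slc16a3 and Egln1 were under 20 CPM in naive-like cells, so they could not have been called higher. Cluster 5 had Ddit4 higher (94.1 against 52.1 CPM, background 8.68%) and Slc2a3, Pfkp and Kdm3a lower (4.28%), and in cluster 3 none of 25 members was called in either direction (0.742% and 2.46%). Cluster 8, the shallow cluster, had 8 higher (48%) and 10 lower (24.9%). Its lower members included Ldha (222 CPM), Gapdh (510.5 CPM) and Higd1a (37.3 CPM), and its higher ones Kdm3a (89.0 CPM) and Slc2a3 (527 CPM). Leaving mitochondrial and ribosomal protein genes out of the total moved every log2 difference of cluster 8 from the other cells by -0.17. The part of the mitochondrial share in these values was not tested.

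Cells were then compared one by one, after thinning to 2000 UMIs (16547 cells). Some glycolysis members varied together within clusters. Ldha had a correlation of 0.30 with the sum of the other 18, Pgk1 0.28, Pkm 0.22, Aldoa 0.22 and Pgam1 0.22, as residuals from cluster means on the log scale. The mean over the 19 members was 0.12, and Hk1 (-0.0019), Pfkfb4 (0.0015), Pfkfb3 (0.013), Slc16a1 (0.021) and Slc2a3 (0.028) had the lowest values. The glycolysis sum had a correlation of -0.15 with mitochondrial UMIs, whose part in these values was not tested. Ldha lay between 0.22 and 0.40 in each of the 12 clusters. Over 300 other genes of at least 400 CPM the median correlation with the glycolysis sum was 0.028, with a range of -0.18 to 0.24. The hypoxia response members hardly varied together, with a mean correlation of 0.026 and a highest of 0.069 for Bnip3, and in counts this sparse that is no finding. The 10 other genes most like the hypoxia response sum, led by Fam162a (0.064), Upp1 (0.053), Anxa2 (0.044) and Igfbp2 (0.041), were as weak. All points share 1 library, and genes were compared at 1 depth.

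The fibroblast-like cluster stood apart in this. The variance of hypoxia response UMIs over their mean was 2.25 there (mean 1.29 UMIs per cell) and 1.08 to 1.71 in the other 11 clusters, where the Two-cell-like cluster was highest. Without called doublets it was 2.53. In it Bnip3 had a correlation of 0.29 with the other hypoxia response members, P4ha1 0.21, Higd1a 0.20 and P4ha2 0.17, and 14 of 15 members were above 0. That count was not particular to it, with 15 of 15 in cluster 3 and 13 of 14 in the naive-like cluster. The mean correlation was 0.10 in the fibroblast-like cluster and 0.023 in each of these 2. A group of 38 of the 530 thinned fibroblast-like cells (7.17%) held at least 4 hypoxia response UMIs, against 1.46% to 4.66% of cells in the other clusters, and the highest held 14. Of the 38 cells, 6 were called doublets.

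Genes that had no part in sorting these cells differed as well. The glycolysis sum was 7694 CPM (7384 to 8013) in the 38 cells, 4785 CPM in the 290 cells with 1 to 3 hypoxia response UMIs and 4346 CPM (4248 to 4447) in the 202 cells with none. Ldha had 903, 508 and 444 CPM in these groups, Pgk1 718, 357 and 312 CPM, Slc16a3 59.6, 14.4 and 11.2 CPM, and Gpi1 268, 129 and 121 CPM. Among HIF targets outside the member list, chosen after their values were seen, Fam162a had 758, 134 and 125 CPM and Ero1a 189, 53.4 and 42.4 CPM. Lox (543, 141 and 89.4 CPM), Plod2 (172, 67.4 and 55.9 CPM), Bnip3l (232, 148 and 152 CPM) and Mif (959.6, 627 and 597 CPM) were also highest in the 38 cells, whereas the intervals of Plin2 (450.0, 430.5 and 392 CPM) overlapped. Slc2a3 (82.7, 98.8 and 98.2 CPM) and Ldhb (49.6, 66.6 and 62.4 CPM) had overlapping intervals. The matrix gene Col3a1 (3306, 1531 and 1397 CPM) and Mmp3 (4715, 1300 and 1407 CPM), a matrix protease gene, differed too, whereas Pou5f1, the pluripotency factor gene used here as a sign of admixed RNA, had 122, 215 and 205 CPM. The median mitochondrial share was 1.48%, 2.32% and 2.35% in the 3 groups. In the naive-like cluster and cluster 2, cells with at least 4 hypoxia response UMIs had a glycolysis sum 1.30 and 1.27 times that of cells with none, and the ratio was 1.77 in fibroblast-like cells. It was also 1.78 in cluster 11 and 1.68 in germ cell-like cells, from 6 and 10 cells.

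**Figure D5:**
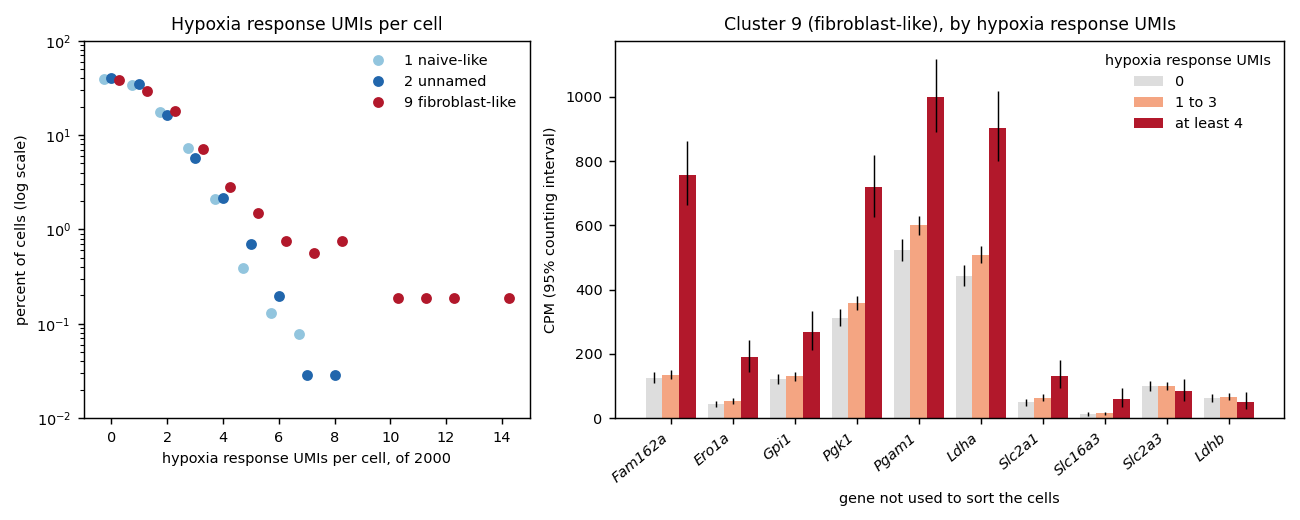
Left, points give the percent of cells (log axis) by the number of hypoxia response UMIs among 2000 UMIs, for the naive-like cluster, cluster 2 and the fibroblast-like cluster, which alone of these reaches 14. Right, level in CPM with 95% counting intervals of 10 genes not used to sort the cells, in fibroblast-like cells with 0, 1 to 3 and at least 4 hypoxia response UMIs; Fam162a stands at 125, 134 and 758 CPM.

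The regulators of the pathway were read from a list of 12 genes. Between the naive-like cluster and cluster 2, none of the 7 tested was called in either direction, against 9.29% of all genes higher and 7.2% lower, and Hif1a itself had 125 and 137 CPM. Across clusters Hif1a was highest in fibroblast-like cells (280 CPM) and lowest in Two-cell-like cells (88.7 CPM). Cited2, a HIF-induced competitor of HIF for its coactivator, had 123 CPM in streak and mesoderm-like cells against a median of 29.6 CPM. Arnt2, a partner of the HIF subunits in neural cells, had 52.8 CPM in cluster 8, 37.7 CPM in the caudal epiblast-like cluster and 37.4 CPM in cluster 11, against a median of 17.4 CPM. Of 31 further HIF targets, 21 could be called in fibroblast-like cells, with 13 higher and 3 lower, against 25% and 29.4% of all genes. Lox had 148 CPM there and at most 1.63 CPM in the other 11 clusters, and Plin2, a lipid droplet gene, had 419 CPM and at most 81.5 CPM. Lox was under 20 CPM in the other 11 clusters, so it could not have been called lower. Lox also acts on collagen, which fibroblasts make. Between the naive-like cluster and cluster 2, 13 targets were tested, with Rcor2 higher (76.9 against 38.1 CPM) and Fam162a lower (73.4 against 163 CPM), and 1 of 13 in each direction is near the shares of all genes.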

How the data were processed

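Single-cell 3′ RNA of 2 samples was measured, and the authors deposited 1 raw matrix of UMI counts. The submitters' processing notes name Cell Ranger 8.0.1 and Seurat, and no genome build is given in the sources used here. The authors also deposited a table of called cells with the probability of the assigned cell tag as a fraction and tag counts on a log10 scale, which were used for checks only. Neither tag name matches a sample label. No barcode was repeated (0 of 2578653).

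Called cells were kept from 1000 genes upward and up to a mitochondrial share of 10%. Their counts were scaled to 10000 per cell, log-transformed and clustered with scanpy 1.11.5 on 2000 variable genes, 30 principal components, 15 neighbours and Leiden resolution 0.5. The 34 members, the genes of the other lists except the cell type markers, and cell cycle genes were left out of the variable genes. A cluster was named where at least 3 markers were raised 2-fold and at least 2 were among its 10 leading genes. Doublets were called with Scrublet at an expected rate of 0.1 and kept. CPM were the summed UMIs of a cluster per 1000000, with rows of the same symbol added and with exact Poisson 95% intervals, and shares had exact binomial 95% intervals. A call needed 1.5-fold with 1 CPM added and 20 CPM on the higher side. For comparisons of single cells, each was thinned to 2000 UMIs, and 294 shallower cells were left out. Cell-free droplets were 72027 barcodes with 150 to 300 UMIs.

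The scripts were tested on simulated data. The members, lists and markers were chosen with earlier results of these data known. All 34 members are described; of each other list, genes with the largest range between clusters or called genes are named, and the 10 genes most correlated with the hypoxia response sum. The split of fibroblast-like cells by hypoxia response UMIs and the genes shown in it were chosen after seeing the data. Alternatives changed the total, cell filter, clustering, doublets, free RNA, weights, fold, reference, pseudocount, minimum level and thinning.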

Additional observations from a re-analysis of the deposited data

Results flagged for a closer look

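The main comparisons left out 4308 called cells for a mitochondrial share over 10%. Given here are 3 members whose level in these cells was above that in cell-free droplets. The share of all genes above their droplet level is not given, so the count says nothing about the members. Slc2a3 had 583 CPM (564 to 603) against 348 CPM in the droplets, Kdm3a 70.5 CPM (64.0 to 77.5) against 43.9 CPM, and P4ha1 34.9 CPM (30.3 to 39.9) against 21.8 CPM. Like the kept cells, these cells could be assigned to neither sample. In cluster 8, kept but also of high mitochondrial share, 48% of all genes tested were higher than in the other kept cells.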

How the results depend on the processing

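Cells come from 1 library without replicates, so intervals cover counting error only and clusters depend on the settings. No paired analysis was possible because each group has 1 sample and the cells could not be assigned to either. The ratio of the highest to the lowest glycolysis sum (2.04) was 2.32 with mitochondrial and ribosomal protein genes left out of the total, 1.59 with a strict cell filter, 1.96 with a lenient one, 1.98 with listed genes in the clustering, 1.72 at resolution 0.3, 2.20 with free RNA taken away and 1.79 without cluster 8 (chosen after seeing the data). The hypoxia response ratio (1.56) was 1.71 without doublets. The Ldhb share of naive-like cells minus that of cluster 2 (19.0 percentage points) was 16.2 with the strict filter, 19.9 with the lenient one and 15.6 with listed genes in the clustering, and the Slc2a3 difference (22.2) was 24.3 with the lenient filter and 17.7 with listed genes. The naive-like cluster had 1 lower member at 2-fold and 6 without a minimum level, in place of 3. With at least 5 against 0 naive marker UMIs, 7 members were higher and 2 lower in place of 3 and 4, and Ldha (log2 difference 0.031) and Egln3 (1.09) turned direction. Without thinning, the mean hypoxia response correlation of 0.026 was 0.048, and 25 in place of 14 members were in at least 10% of cells. The cause of these differences was not tested. Of the other values compared, 70 main results and 465 single values stayed within their intervals or limits, and 141 single values moved beyond them. The comparison of naive-like cells with cluster 2 was not computed at resolution 0.3, where cluster 2 was not found again, or at 1.0, where neither cluster was.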

Other observations

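Of the integrated stress response list, 4 of 7 tested genes were higher in naive-like cells than in cluster 2: Atf4, its central transcription factor (164 against 99.0 CPM), the asparagine synthetase gene Asns (119 against 56.8 CPM), Chac1 (25.4 against 11.2 CPM) and Trib3 (25.1 against 10.6 CPM). Chac1 and Trib3 were under 20 CPM in cluster 2, so they could not have been called lower. Of 21 tested genes of pyruvate entry and the citric acid cycle, 3 were higher and none lower. These were Mpc1, part of the mitochondrial pyruvate carrier (62.3 against 31.7 CPM), Idh2, a mitochondrial isocitrate dehydrogenase (106 against 56.1 CPM), and Pdha1, a subunit of pyruvate dehydrogenase (166 against 109.6 CPM). In the pentose phosphate pathway 1 of 6 was higher, Rpe (53.8 against 32.1 CPM), and in the MYC family 1 of 3, Mycn (166 against 102 CPM). Over all genes tested, 9.29% were higher and 7.2% lower. Of 3 tested genes of other glycolysis isozymes and related enzymes, 2 were higher: Ldhb, given above, and Tigar. Tigar, whose product lowers the activator of phosphofructokinase, had 56.5 against 32.4 CPM.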
